A study of Mus musculus with 6 samples.

Results

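The genes of the cell cycle and of DNA replication were examined in B16 melanomas, tumors grown in C57BL/6 mice from a transplantable melanoma cell line of that strain. The set held 41 genes chosen by name: 17 that copy DNA in S phase, 16 of mitosis and 8 that regulate passage between phases. Of these, 35 had a named probe, each detected on all 6 arrays (detection p-value under 0.05), among 10523 genes tested in all. Mki67, Ccnb1, Ccnb2, Bub1, Kif20a and Ccna2 could not be matched to a named probe and were not analysed here, so the mitosis group was represented by 11 of its 16 genes and lacked both B-type cyclins.

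Per the labels, every mouse received 400000 B16 cells, and at day 8 the tumors were excised, freed of adjacent normal tissue and divided by area into large tumors (70 to 80 mm2, 3 samples) and small tumors (10 to 20 mm2, 3 samples). No further treatment separated the groups, and neither the age nor the sex of the mice is stated. Each sample was 1 bead array hybridised with RNA amplified from 100 ng. The labels number the replicates but do not say whether each came from a separate mouse, so the p-values below reflect only how far these samples spread, which may be technical.

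Cells copy their DNA in S phase and divide in M phase. Before S phase the origin factors Cdc6 and Cdt1 load the MCM helicase, E2F transcription factors then raise the genes of replication, and cyclin-dependent kinases start the copying. Later the MYB-MuvB complex and the factor FOXM1 control a separate wave of mitotic genes. They act through an element called the cell cycle genes homology region (CHR), often with CCAAT boxes bound by NF-Y. The RNA of these genes is high in dividing cells and low in resting ones, so it is widely read as a measure of the dividing fraction of a tumor.

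The arrays were of unequal brightness. The median signal was 117 to 128 in large and 104 to 115 in small tumors, and between 17310 and 19771 probes were detected, with small replicate 1 the dimmest. All 10 melanocyte markers, such as Tyr and Pmel, were detected. Their mean level after centring each gene was 0.01 to 0.14 on the log2 scale in large and -0.12 to -0.03 in small tumors. Keratinocyte markers (9 of 13 tested) varied more widely than any other marker list, from -3.09 to 2.61 by array, with high and low arrays in both groups.

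The promoters of the replication and mitosis genes differed in the elements named above, which is why examples of both are shown. Promoter windows from RefSeq (GRCm38.p6), 250 bases before to 50 after a start, were found for 31 of the 41 genes. The letters searched, on both strands, were TTTGAA for the CHR, CCAAT for the CCAAT box, and TTTCCCGC, TTTCGCGC, TTTGCCGC and TTTGGCGC for E2F. Matches can overlap one another, as E2F matches on opposite strands do. A match to E2F letters stood in 8 of 16 windows of replication genes (50%) and in 1 of 13 windows of mitosis genes (7.69%), against 2.26% of all 32851 windows. The CHR letters were present in 10 of 13 windows of mitosis genes (76.9%) and 1 of 16 of replication genes (6.25%), against 17.9% of all windows. CCAAT was found in 92.3% of mitosis and 68.8% of replication windows, against 37.4% of all. These matches describe the letters of the windows, not binding. Below are the 250 bases before the start, read 5′ to 3′ on the gene's strand, for the helicase subunits Mcm5 and Mcm6, for the mitosis genes Top2a and Cdc20, and for Cdk1, the mitosis gene whose window held E2F letters too. Capitals mark every match.
Mcm5, chr8:75109259-75109508, plus strand: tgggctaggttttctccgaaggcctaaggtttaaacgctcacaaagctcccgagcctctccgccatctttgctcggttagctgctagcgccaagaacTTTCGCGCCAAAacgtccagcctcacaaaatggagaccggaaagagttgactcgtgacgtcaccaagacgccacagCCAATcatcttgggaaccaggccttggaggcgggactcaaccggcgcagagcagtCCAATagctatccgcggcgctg
Mcm6, chr1:128359706-128359955, minus strand: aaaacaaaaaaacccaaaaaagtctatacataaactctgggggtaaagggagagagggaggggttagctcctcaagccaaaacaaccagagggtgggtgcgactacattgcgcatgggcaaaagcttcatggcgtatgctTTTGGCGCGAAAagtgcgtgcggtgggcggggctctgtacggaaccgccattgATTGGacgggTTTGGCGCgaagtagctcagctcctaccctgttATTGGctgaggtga
Top2a, chr11:99024190-99024439, minus strand: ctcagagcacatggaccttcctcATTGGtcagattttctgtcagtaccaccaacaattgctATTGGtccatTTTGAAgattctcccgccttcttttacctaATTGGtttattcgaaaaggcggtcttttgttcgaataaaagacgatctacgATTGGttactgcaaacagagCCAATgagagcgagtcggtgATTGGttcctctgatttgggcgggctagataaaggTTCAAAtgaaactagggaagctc
Cdc20, chr4:118437344-118437593, minus strand: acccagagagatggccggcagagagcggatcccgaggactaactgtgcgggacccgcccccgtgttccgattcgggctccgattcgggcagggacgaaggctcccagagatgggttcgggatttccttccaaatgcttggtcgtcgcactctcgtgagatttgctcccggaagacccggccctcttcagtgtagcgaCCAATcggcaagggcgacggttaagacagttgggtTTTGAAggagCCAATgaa
Cdk1, chr10:69352913-69353162, minus strand: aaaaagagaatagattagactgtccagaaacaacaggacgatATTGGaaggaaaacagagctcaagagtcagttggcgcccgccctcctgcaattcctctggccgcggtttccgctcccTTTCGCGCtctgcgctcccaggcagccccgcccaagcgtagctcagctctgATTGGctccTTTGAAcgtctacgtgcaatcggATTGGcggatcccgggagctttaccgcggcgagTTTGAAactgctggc
In Mcm5 and in Mcm6 a pair of E2F matches on opposite strands overlapped in a single run of capitals. Top2a held 6 CCAAT boxes and 2 CHR matches in this stretch, and Cdk1 held 3 CCAAT boxes, 2 CHR matches and 1 E2F match. Of the 10 tested genes with E2F letters, 4 had a higher and 6 a lower mean in large tumors, with a median log2 fold change of -0.04. The 6 include Cdk2, whose direction is uncertain between its probes. Of the 9 with CHR letters, 7 were higher and 2 lower, with a median of 0.04. Over all genes 49.9% were higher in large tumors. Apart from Mcm2 the 9 are mitosis genes, and apart from Cdk1 and Cdk2 the 10 are replication genes. These counts are thus not separate from those of the role groups below, and Cdk1 is in both.

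The comparison of large with small tumors asked whether tumors that had grown to different sizes by the same day differed in proliferation RNA. Of the 35 genes, 1 rose and 0 fell in large tumors, against 2.47% of all genes called, 0.789% higher and 1.68% lower (limma, adjusted p under 0.05). The gene that rose was Atad2, a bromodomain ATPase of chromatin known as an E2F target in human cells. The intervals that follow are those of each gene's brightest probe and leave out disagreement between probes, which is given further on. For 27 of the 35 the 95% interval of the fit lay within a 1.5-fold change in either direction, as for 51.6% of all genes, and for 34 it lay within 2-fold, as for 85.6% of all genes. The exception at 2-fold was Atad2. These shares were not matched for signal: the 35 were detected on every array, while a gene needed 3 arrays to be tested. The median log2 fold change of the 35 was 0.03, beside -0.001 for all genes, with 19 above and 16 below 0. It lay between -0.03 and 0.04 when single arrays were left out, below 0 without large replicate 1, small replicate 2 or small replicate 3. Large and small tumors did not overlap in 13 of the 35, 7 with large and 6 with small higher, against 29.6% of all genes. Cdk2 is among the 6 by its brightest probe, while its other 3 probes were higher in large tumors. Log2 fold changes are large minus small throughout, and levels are background-corrected, quantile-normalized log2 intensities.

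**Figure D1:**
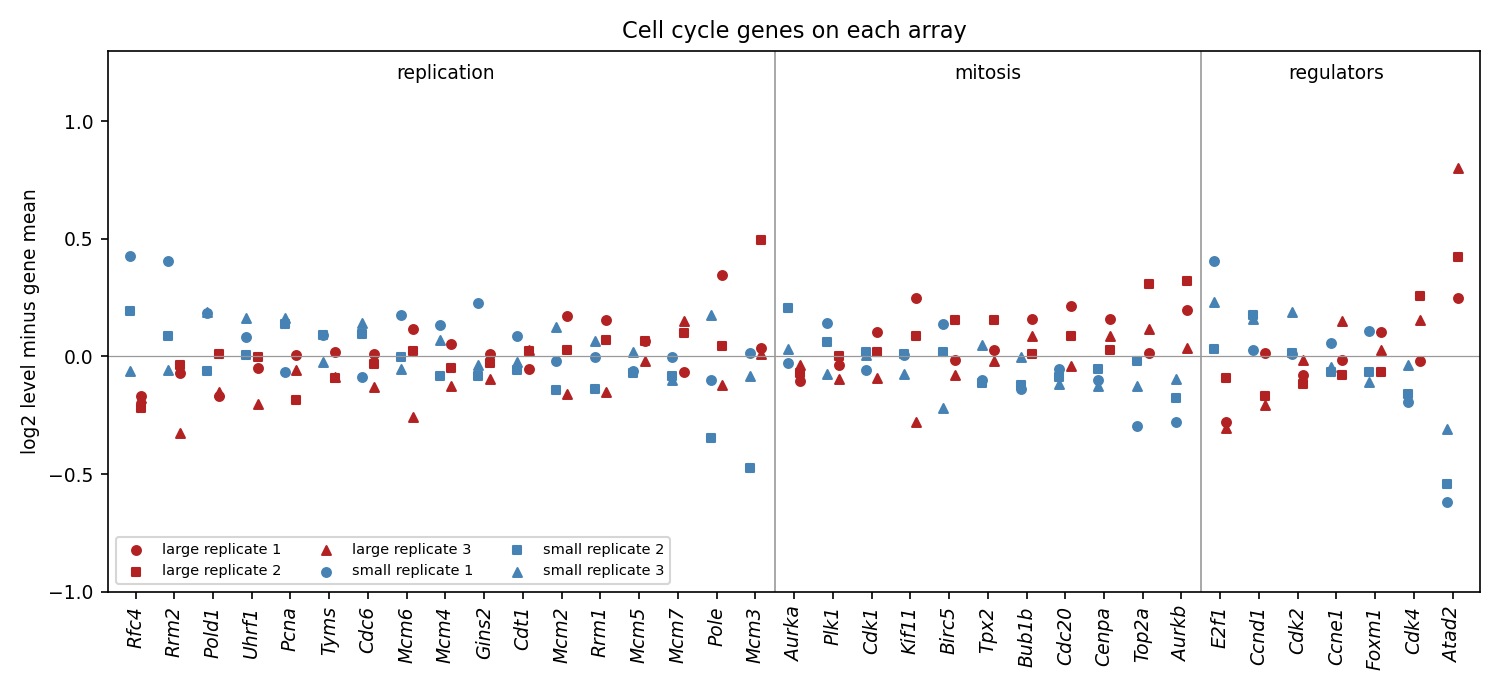
Log2 level of each of the 35 genes on each array, with the gene's mean over the 6 arrays subtracted (vertical axis), for replication, mitosis and regulator genes. Red points are large and blue points small tumors, and the shape gives the replicate. Atad2 stands apart at the right with all 3 large tumors above all 3 small ones, while most genes have mixed colours within 0.3 of their mean.

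The replication genes are given first. Within the MCM helicase, the ring of 6 subunits that unwinds DNA, fold changes lay between -0.08 for Mcm6 and 0.36 for Mcm3. Mcm3 was at 7.81, 8.27 and 7.79 in large replicates 1 to 3 and at 7.79, 7.30 and 7.69 in the small ones. Large replicate 2 was high and small replicate 2 low, and the groups overlapped (0.36 ± 0.19, SE, n = 3 per group; adjusted p = 0.306, limma). Mcm2, Mcm4, Mcm5 and Mcm7 lay between -0.08 and 0.12, and the interval of Mcm5 ran from -0.15 to 0.30. The loading factors Cdc6 and Cdt1 had fold changes of -0.10 and -0.003, and Gins2, a subunit of the GINS complex that activates the helicase, -0.07.

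At the replication fork, Rfc4 had the lowest p of the replication genes. It encodes a subunit of the clamp loader that places PCNA on DNA. Its level was 9.05, 9.003 and 9.05 in large tumors and 9.65, 9.41 and 9.16 in small tumors. All small tumors were higher, with a wide spread among them (SD 0.25, against 0.03 in large). The difference of -0.37 ± 0.14 had an unadjusted p of 0.0357 but did not pass the test over all genes (adjusted p = 0.189, limma). Its second detected probe was at 0.20 ± 0.29. Pcna, the sliding clamp itself, was at 6.28, 6.09 and 6.21 in large tumors and 6.21, 6.41 and 6.44 in the small group, which overlapped (-0.16 ± 0.11). Its fold change was -0.03 in the authors' processed table, -0.07 without background correction and -0.28 with arrays scaled. The catalytic subunit of polymerase delta, Pold1, was at 10.96, 11.14 and 10.98 in large tumors, overlapping the 11.32, 11.07 and 11.32 of small tumors (-0.21 ± 0.12). Pole, its counterpart in polymerase epsilon, had a fold change of 0.18 ± 0.18.

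Enzymes that make DNA precursors did not pass the test either. Rrm2, the small subunit of ribonucleotide reductase and the one that limits it in S phase, was at 10.13, 10.17 and 9.87 in large tumors, against 10.60, 10.29 and 10.14 in small ones. Large replicate 3 was lowest and small replicate 1 highest, and the groups overlapped (-0.29 ± 0.16; adjusted p = 0.319, limma). The other Rrm2 probes were at -0.03 and 0.08, and the fold change of the brightest was -0.16 without small replicate 1 and -0.18 with array weights. Its partner Rrm1 was at 0.05 ± 0.12, and thymidylate synthase, Tyms, at -0.11 ± 0.10. Uhrf1, which guides maintenance DNA methylation behind the fork, was at 12.04, 12.08 and 11.89 in large tumors and 12.17, 12.09 and 12.25 in the small group. All 3 small values were higher, though replicate 2 of each group lay close together, and the fold change was -0.17 ± 0.11 (adjusted p = 0.398). In all, 0 of 17 replication genes were called and 1 had an unadjusted p under 0.05 (limma), as did 22.5% of all genes. Their median was -0.08, with 11 of 17 below 0. It was -0.013, with 9 of 17 below 0, without small replicate 1, -0.024 with arrays scaled, -0.03 with array weights, -0.037 without large replicate 3, and -0.003 over the 29 detected probes of these genes.

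Mitosis genes leaned the other way. Of 11, 9 had a positive fold change, with a median of 0.11, while 0 were called and 1 had an unadjusted p under 0.05 (limma). Over all genes 49.9% had a positive fold change, 2.47% were called and 22.5% had an unadjusted p under 0.05. The mitosis median was 0.058 without large replicate 2, 0.17 without large replicate 3 and 0.07 without background correction. Of the 11, 7 were positive without large replicate 1. There were 8 with the authors' processed table, with the mean of probes, and without large replicate 2, small replicate 1 or small replicate 3. The gene with the low p was Aurkb, the kinase of the chromosomal passenger complex. It was at 9.34, 9.46 and 9.18 in large tumors, against 8.86, 8.96 and 9.05 in small ones. The groups did not overlap, and the difference of 0.37 ± 0.12 missed the threshold (adjusted p = 0.139, limma). Birc5, survivin, which belongs to the same complex, was at 0.04 ± 0.13, with its 3 probes between 0.04 and 0.12.

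Top2a, the topoisomerase that untangles chromosomes before they part, was at 10.15, 10.44 and 10.25 in large tumors and 9.84, 10.11 and 10.01 in the small group. Every large value was above every small one, by a narrow margin between the nearest pair (0.29 ± 0.13; adjusted p = 0.237, limma). Its other 2 detected probes, both dimmer, were at 0.01 and 0.08 with overlapping groups, and the mean of its probes gave 0.13. Its promoter is among those shown above. Cenpa, the histone that marks centromeres, had levels of 13.02, 12.89 and 12.95 in large against 12.76, 12.81 and 12.74 in small tumors (0.18 ± 0.10). For Bub1b, a kinase of the spindle checkpoint, the values were 10.60, 10.46 and 10.53 against 10.31, 10.32 and 10.44 (0.17 ± 0.10). Cdc20, which activates the anaphase-promoting complex, was at 11.09, 10.96 and 10.83 in large tumors, against 10.81, 10.78 and 10.75 in small ones (0.17 ± 0.11). In these genes too, by the brightest probe, the large tumors lay above the small ones without overlap. For Bub1b and Cdc20 the nearest pair was closer still than for Top2a. The adjusted p-values were 0.308, 0.365 and 0.384 (limma). The second Cenpa probe (0.29) and the other Cdc20 probes (0.10, 0.07 and 0.24) had overlapping groups. The second Bub1b probe (0.205) did not.

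Aurka, the spindle pole kinase, went the opposite way, at 9.48, 9.52 and 9.55 in large tumors and 9.56, 9.79 and 9.62 in the small group (-0.14 ± 0.11; adjusted p = 0.478, limma). Plk1, which acts throughout mitosis, was at -0.09 ± 0.11. Cdk1, the kinase that drives entry into mitosis, was at 0.02 ± 0.10, and the spindle genes Kif11 and Tpx2 were at 0.04 ± 0.15 and 0.11 ± 0.11. Groups did not overlap in 6 of the 11 mitosis genes, 5 with large higher and 1 with small higher. Over all genes the shares were 16.1% with large higher and 13.6% with small higher.

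**Figure D2:**
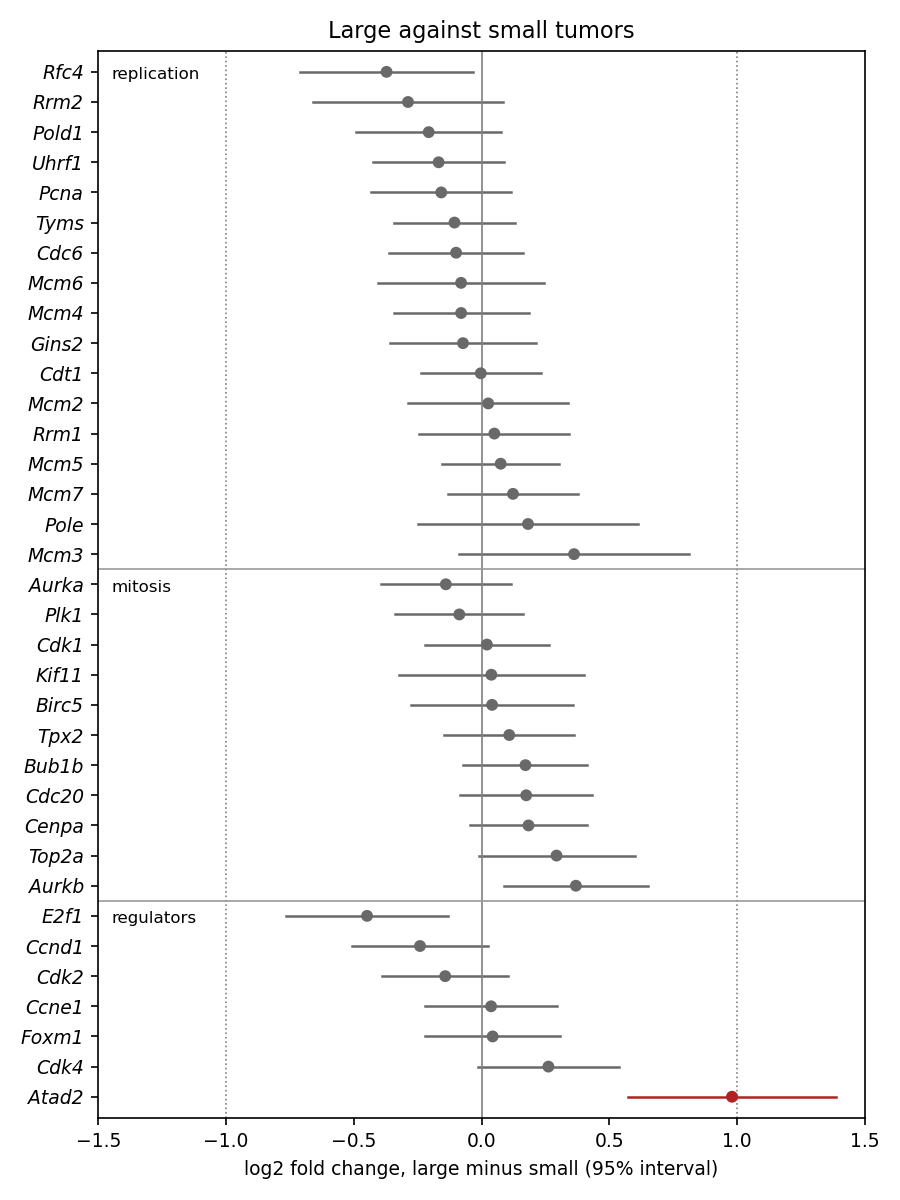
Log2 fold change of each gene, large minus small (horizontal axis), with the 95% interval of the limma fit as a line. Atad2, in red, is the gene called at an adjusted p under 0.05, and dotted lines mark a 2-fold change in either direction, inside which all the other intervals lie.

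Among the regulators, Atad2 was at 6.19, 6.37 and 6.75 in large tumors, against 5.33, 5.41 and 5.64 in small ones. All 3 large values were above all small ones. The means were 6.44 ± 0.28 and 5.46 ± 0.16 (SD, n = 3 each), a log2 fold change of 0.98 ± 0.17 (SE), or 1.97-fold (adjusted p = 0.042, limma), with an interval from 0.57 to 1.39. A single probe measured it. Its size depended on how background was treated: it was 0.39 (adjusted p = 0.0572) when quantile normalization was run without background correction and 0.63 (adjusted p = 0.0414) with an offset of 50, and it was 0.78 (adjusted p = 0.0611) with arrays scaled in place of quantile normalization. The call ended whichever array was left out (adjusted p = 0.064 to 0.151).

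E2f1, an activator of the replication genes, was at 10.56, 10.74 and 10.53 in large tumors and 11.24, 10.87 and 11.07 in the small group. The small tumors were all higher, and the difference of -0.45 ± 0.13 had an unadjusted p of 0.0127 and an adjusted p of 0.122 (limma). Atad2 and E2f1 thus lay on opposite sides of 0. Cyclin D1, Ccnd1, which couples growth signals to G1, was at 12.41, 12.23 and 12.19 in large tumors, against 12.42, 12.58 and 12.56 in small ones (-0.24 ± 0.11; adjusted p = 0.255, limma). Its 3 probes lay between -0.36 and -0.24. Its partner Cdk4 was at 10.07, 10.34 and 10.24 in large tumors and 9.89, 9.92 and 10.05 in the small group (0.26 ± 0.12; adjusted p = 0.241, limma). For both genes the groups did not overlap, with cyclin D1 higher in small and its kinase higher in large tumors. Cdk4 had a second probe at -0.01. Cyclin E1 (Ccne1) and Foxm1 were at 0.04 ± 0.11 and 0.04 ± 0.11.

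Probes of the same gene disagreed in part. Of 17 genes with several detected probes, 11 had probes on both sides of 0, and the median spread between a gene's lowest and highest probe was 0.27. The brightest probe stands for the gene above. Cdk2 and Mcm7 are described here because their probes lay furthest apart, and they, Mcm6 and Rrm1 were chosen after their values were seen. Taken one by one, 2 of the 64 detected probes were called, against 3.28% of all probes, 1 for Atad2 and 1 for Cdk2.

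Cdk2, the kinase that works with cyclins E and A in S phase, had 4 detected probes. The brightest was at 13.28, 13.24 and 13.34 in large tumors, against 13.37, 13.37 and 13.55 in small ones, with small tumors higher (-0.14 ± 0.11, probe by probe). The third in brightness was at 10.26, 10.39 and 10.60 in large tumors and 9.84, 9.78 and 9.73 in the small group, with large tumors higher and no overlap (0.63 ± 0.13; adjusted p = 0.0488, limma over all probes). Its remaining probes were at 0.23 ± 0.11 and 0.54 ± 0.14, again without overlap. The brightest probe and the one that was called carry the same transcript accession in the platform annotation. In the RefSeq table the span of Cdk2 overlaps that of Pmel, a pigment gene, which was at 0.09 ± 0.09. The part of Pmel RNA in any Cdk2 signal was not tested, and the direction of Cdk2 is uncertain. The spans of Cdk4, Cdc20, Rfc4, Mcm7, Aurka, Ccnd1, Gins2, E2f1 and Foxm1 also overlap a neighbouring gene there, and probes were not placed on the genome here. Tspan31, the neighbour of Cdk4, was at 0.55 ± 0.13 (adjusted p = 0.073, limma), and Elovl1, the neighbour of Cdc20, at 0.28 ± 0.11. The part of either in the probes of Cdk4 and Cdc20 was not tested.

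For Mcm7 the brighter probe was at 0.12 ± 0.11. The dimmer one was at 7.60, 7.35 and 7.34 in large tumors, against 9.37, 7.93 and 8.33 in small ones. Small replicate 1, the dimmest array, was the highest, and the groups did not overlap (-1.11 ± 0.34; adjusted p = 0.117, limma over all probes). Mcm6 had probes at -0.08, -0.32 and 0.29, and Rrm1 at 0.05, 0.16 and -0.59.

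**Figure D3:**
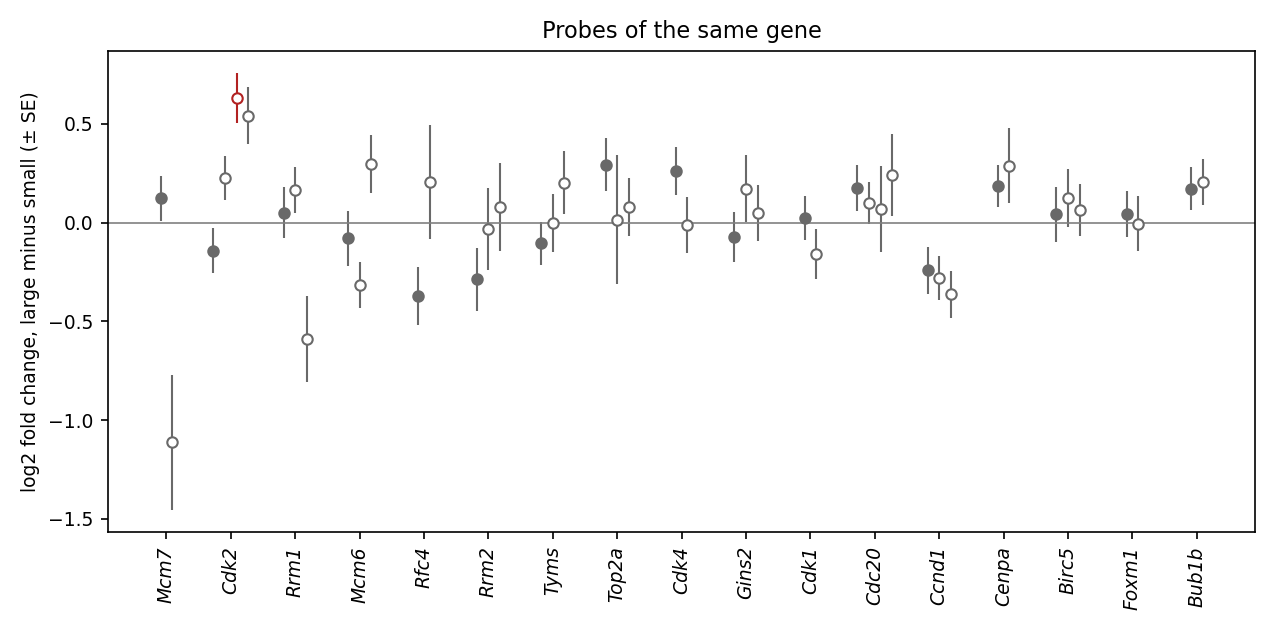
Log2 fold change, large minus small, with its SE for every detected probe of the 17 genes with several, ordered by the spread between probes. Filled points are the brightest probe, open points the others, and red is the Cdk2 probe called at an adjusted p under 0.05. Mcm7 and Cdk2, at the left, have probes on both sides of 0, while Ccnd1, Cenpa and Bub1b have all probes on 1 side.

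Replication was then set against mitosis within each array. The mean centred level of the 17 replication genes minus that of the 11 mitosis genes was -0.06, -0.09 and -0.08 in large replicates 1 to 3 and 0.16, -0.03 and 0.11 in the small ones. The groups did not overlap, though small replicate 2 lay close to the large tumors. Means were -0.08 ± 0.01 in large and 0.08 ± 0.10 in small tumors (SD, n = 3 each), a difference of -0.15 on the log2 scale. Neither set separated the groups by itself: replication means ran from -0.11 to 0.02 in large and -0.05 to 0.09 in small tumors, and mitosis means from -0.03 to 0.10 and from -0.07 to -0.02. The difference is a description with no test, since the genes were named with earlier results known. Under other background corrections, normalizations and probe rules, and the authors' processed table, it ran from -0.16 to -0.14 without overlap of the groups. With the mean of a gene's probes they nearly met, the highest large tumor at -0.0487 and the lowest small one at -0.0454. Without any single array the difference ran from -0.21 to -0.12. Leaving out an array shifts all remaining arrays by the same amount, so it could not have made the groups overlap.

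Other genes of the same processes, from lists of textbook members, are set beside these. The mean of their 20 origin and 25 fork genes together was set minus that of 41 further mitosis genes. It came to -0.06, -0.11 and -0.05 in large tumors and 0.07, 0.01 and 0.14 in the small group, again without overlap. The arrays are the same, and these lists too were chosen with earlier results known, so the difference is a description with no test. Means were -0.07 ± 0.03 and 0.07 ± 0.06 (SD, n = 3 each). The score pools the lists, which differed when taken alone. Array means of the origin genes alone overlapped, at -0.006 to 0.04 in large and -0.03 to 0.0002 in small tumors. Those of the fork genes did not, at -0.08 to -0.03 and 0.0007 to 0.12. Those of the 41 mitosis genes did not either, at 0.02 to 0.08 in large and -0.12 to -0.02 in small tumors. The list medians were 0.03 for 20 origin genes, -0.11 for 25 genes of the fork and of nucleotide supply, and 0.11 for 41 mitosis genes, beside -0.001 for all genes. The origin list, though of replication, held 14 genes above 0 and 6 below, and its median was -0.006 without large replicate 1. The fork list held 20 genes below 0 and 5 above, and the mitosis list 28 above and 13 below.

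**Figure D4:**
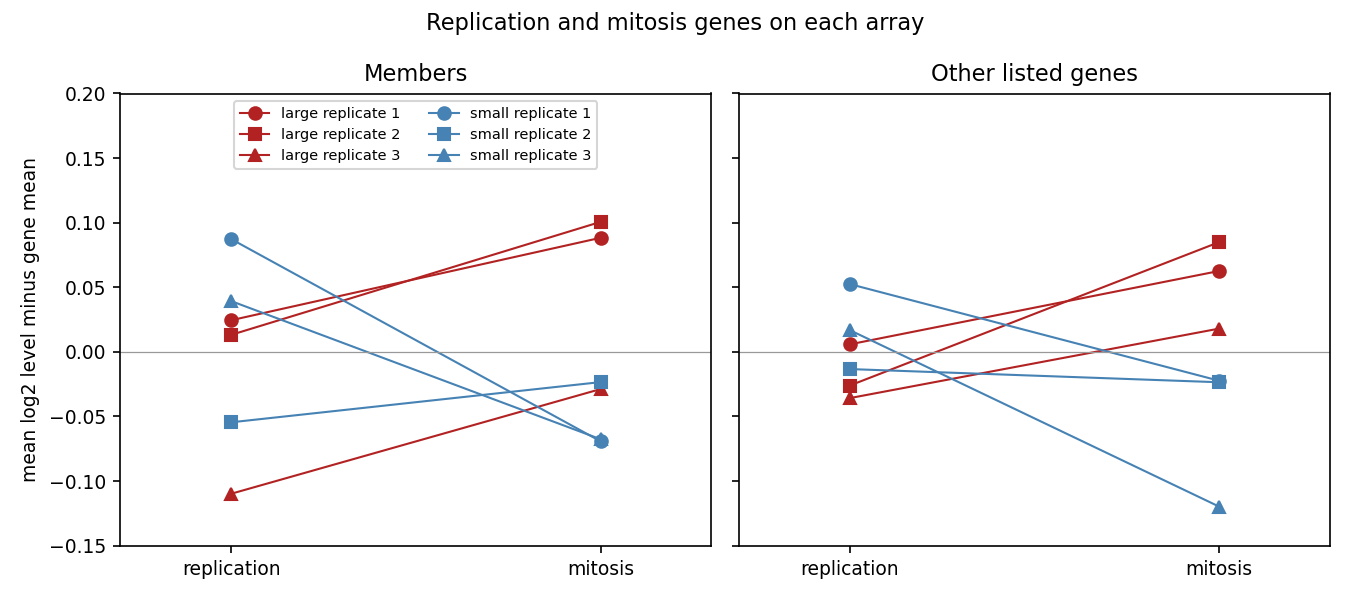
Mean log2 level, each gene centred on its mean over the arrays, of replication and mitosis genes (vertical axis) on each array, for the genes of the set (left) and for other listed genes (right). Lines join values of 1 array, red for large and blue for small tumors. All 3 red lines rise from replication to mitosis, as does that of small replicate 2 at the left, and the other blue lines fall.

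Beside this difference, other RNA moved with tumor size. Skeletal muscle markers (14 of 15 tested) had array means of -1.09 to -0.78 in large and 0.61 to 1.31 in small tumors, with 12 called lower. Interferon-gamma response genes (17 of 18) ran from -1.11 to -0.62 and from 0.38 to 1.32, with 13 called lower, and T cell and NK cell markers (10 of 18) from -0.71 to -0.39 and from 0.38 to 0.83, with 6 called lower. Macrophage and monocyte markers (11 of 14) all had a negative fold change, with 1 called lower. Array means by replicate, 1 to 3, ran at -0.08, -0.52 and -0.39 for large tumors, against 0.61, -0.17 and 0.55 for small ones. Small replicate 2 was the lowest small array here, as in the replication and mitosis difference. This was not particular to macrophages. Small replicate 2 was also the lowest small array for fibroblast (-0.29) and endothelial markers (-0.21). It was the highest for skeletal muscle (1.31) and for T cell and NK cell markers (0.83). Of the melanocyte markers given above, 9 of 10 had a positive fold change and 0 were called. In whole tumors, fewer cells of a type and less RNA per cell cannot be told apart, and any dividing cell, tumor or host, can supply these transcripts. The part of these lists in the replication and mitosis values was not tested.

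In the 6 further lists, which held 142 tested genes, 0 were called, against 2.47% of all genes. An unadjusted p under 0.05 was found for 22 of them (limma), a share below the 22.5% of all genes. In the origin list, Ticrr and Orc2, which act in origin firing and origin recognition, had the lowest p, at 0.31 ± 0.11 and 0.28 ± 0.11. Their probes were dim, detected on 5 and 4 arrays, and without background correction the fold changes were 0.09 and 0.08. With arrays scaled in place of quantile normalization they were 0.03 and -0.058. Of fork genes, the polymerase epsilon subunit Pole4 was at 8.93, 9.08 and 8.99 in large tumors, against 9.50, 9.24 and 9.24 in small ones (-0.33 ± 0.12). Rpa3, a subunit of the single-strand binding complex, was at 0.30 ± 0.11.

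Of the further mitosis genes, Smc2, a core subunit of condensin, was at 7.04, 6.87 and 7.15 in large tumors and 6.42, 6.56 and 6.24 in the small group, with no overlap (0.62 ± 0.13; adjusted p = 0.0623, limma). The Smc2 fold change was 0.32 without background correction and 0.47 with an offset of 50. Anln, the cytokinesis protein anillin, was at 0.36 ± 0.10 (adjusted p = 0.107, limma), and at 0.22 with the mean of its probes. In the list of G1/S cyclins, inhibitors and RB and E2F genes the median was 0.04, but it was below 0 in 3 alternatives, at -0.004 with arrays scaled, -0.002 with the mean of probes and -0.03 with every detected probe. Rb1, the retinoblastoma protein that holds E2F in check, was at 8.51, 8.46 and 8.39 in large tumors, against 9.19, 8.97 and 8.75 in small ones. Every large value was below every small one, and the difference of -0.52 ± 0.14 had an adjusted p of 0.0954 (limma). Cyclin D3, Ccnd3, was at -0.30 ± 0.11, on the same side as cyclin D1.

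The p53 target list had a median of 0.09, with 10 of 13 genes above 0. Ei24 was at 10.999, 10.94 and 11.16 in large tumors and 10.50, 10.48 and 10.50 in the small group, well apart (0.54 ± 0.10; adjusted p = 0.0554, limma). It was called in 6 of 16 alternative settings. Sesn2, a stress-induced regulator of growth signalling, was at 0.44 ± 0.11. DNA damage and repair genes had a median of 0.09, with 13 of 20 above 0, among them the BRCA1 partner Bard1 at 0.74 ± 0.19 and the helicase Blm at 0.46 ± 0.12 (adjusted p = 0.0943 and 0.0992, limma). Bard1 was detected on 4 arrays, and its fold change was 0.23 without background correction and 0.38 with an offset of 50. Sesn2 was likewise at 0.23 without background correction. Array means of the damage and repair genes did not overlap, at 0.05 to 0.06 in large and -0.12 to 0.001 in small tumors. Those of the p53 targets did.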

How the data were processed

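Illumina bead arrays of 6 tumors were used. The deposited signals are linear intensity, averaged over a probe's beads, beside a detection p-value, per the file headers. They were exported from GenomeStudio, per the submitters' processing notes, which state no version or settings. The lowest signal per array was 84.2 to 98.4, so background had not been subtracted. The authors' processed intensity was also deposited, for 20346 of 45281 probes, with a floor of 28.8 and unstated background correction, centring and normalization. It served as an alternative.

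Background correction, quantile normalization and log2 transformation used the neqc function (limma 3.58.1, R 4.3.3, offset 16). A probe was kept if 3 or more of the 6 arrays detected it (p-value under 0.05), which left 19120, and names came from the platform annotation, at hand for probes of the authors' table. The brightest probe stood for a gene, by its mean log2 value over the arrays (10523 genes). Large and small tumors were compared with lmFit and eBayes, with Benjamini-Hochberg adjustment over all genes. The fit was tested on simulated data. The number of arrays limits the precision, and a permutation of 3 against 3 cannot give an exact p below 0.1.

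The members and lists were chosen with earlier results of these data known. The rule for named genes took called members, the 4 lowest p-values in each role group (6 where none was called) and the 2 lowest in each other list. Alternatives were other background corrections, normalizations, filters, probe rules and priors, array weights, a block for the replicate number, and leaving out each array.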

Additional observations from a re-analysis of the deposited data

How the results depend on the processing

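The count of called genes of the set, 1 in the values reported, was 0 when quantile normalization was run without background correction, 0 with scaling in place of quantile normalization, 0 with the replicate block, 2 with every detected probe on its own, and 0 to 0 over the 6 omissions of an array. Over all genes, 260 were called. In the same order the first 4 settings gave 408, 392, 109 and 534 genes, and detection on all 6 arrays gave 402, a trended and robust prior 656 and array weights 574. Leaving out 1 array gave 0 to 300 (0 without large replicate 1 or large replicate 3, 1 without small replicate 3). The other lists, with 0 called genes of 142, had 2, 1, 1, 1, 2, 3 and 2 with no background correction, offset 50, scaling, the authors' processed table, detection on all 6 arrays, the trended prior and array weights. The difference of the replication and mitosis medians, -0.19, was -0.10 with scaling and -0.10 with every probe on its own, and -0.24 to -0.13 when an array was left out. Of the 28 named genes, Orc2 changed sign once, to -0.0575 with scaling (adjusted p = 0.859), and the cause was not tested. Atad2 was called in 7 of 16 alternatives. Same-numbered large and small samples did not deviate together (r = -0.55, -0.07 and -0.45 for replicates 1 to 3, across genes), so the numbers were not taken as pairs, and with the replicate block Atad2 had an adjusted p of 0.0501. Folds of dim probes such as that of Atad2 depend on the background correction, and 6 genes of the set were not analysed here.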
